A study of Mus musculus with 2 samples.

Results

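The genes described here are 6 miRNA hairpins that lie inside Htr2c, namely Mir764, Mir1912, Mir1264, Mir1298, Mir1911 and Mir448, together with Mir204 and Mir211, which lie inside Trpm3 and Trpm1. They were chosen by position and host, not by level, though earlier results of these data were known. They make up 8 of the 2202 miRNA genes in the tables. GENCODE M21 names the hairpin of miR-1911 Gm24627, and RefSeq pairs the names. MicroRNA-seq of fragments under 30 nt was made from total RNA of the left cerebral cortex. The mice were adult females of strain 5xFAD/CAST aged 8 to 10 months, and the RNA was sequenced in 2 libraries numbered as biological replicates 1 and 2 of 1 group. 5xFAD is a transgenic model, driven by the neuronal Thy1 promoter, in which amyloid plaques form. The labels state no second genotype and give both libraries the same donor entry, so it is not known whether the tissue came from separate animals.

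Many intronic miRNAs are made from the host's primary transcript, from which Drosha frees the hairpin before Dicer cuts out the mature strands. Host RNA was not measured here. The seed, bases 2 to 8 of the mature strand, pairs with target mRNAs. Htr2c encodes the serotonin 2C receptor, whose mRNA is abundant in the epithelium of the choroid plexus and is also made in neurons of the cortex. Trpm3 and Trpm1 encode cation channels. Mir204 is known for high levels in choroid plexus and retinal pigment epithelium, and Mir211 for its place in the Trpm1 gene of melanocytes, where the pigment-cell factor Mitf drives it.

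The mature strands of RefSeq (GRCm38.p6) are shown first, since they tell which members could act on common targets. Capitals mark the seed. The first 2 sequences are the 5p strands of the Trpm-hosted pair, and the others come from the Htr2c hairpins in genome order.
mmu-miR-204-5p: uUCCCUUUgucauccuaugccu
mmu-miR-211-5p: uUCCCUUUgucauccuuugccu
mmu-miR-764-5p: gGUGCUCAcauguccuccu
mmu-miR-764-3p: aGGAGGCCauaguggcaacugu
mmu-miR-1912-3p: cACAGAACaugcagugagaacu
mmu-miR-1264-3p: cAAAUCUUauuugagcaccugu
mmu-miR-1298-5p: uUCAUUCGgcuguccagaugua
mmu-miR-1298-3p: cAUCUGGGcaacugauugaacu
mmu-miR-1911-5p: uGAGUACAgccaugucuguuggg
mmu-miR-448-5p: gAACAUCCugcauagugcugcc
mmu-miR-448-3p: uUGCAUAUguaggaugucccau

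MiR-204-5p and miR-211-5p share their seed and 21 of 22 bases. The difference is A17U, counted from the 5′ end with the base of miR-204-5p first. Their 3p strands share 14 of 21 positions and have different seeds. No Htr2c hairpin has a seed in common with another Htr2c hairpin or with the Trpm-hosted pair, so the cluster is a set of unlike miRNAs in 1 host and not a family. Among the 1679 mature names in the RefSeq table, 1 other strand, miR-7670-3p, has the seed of miR-204-5p, and none has a seed of miR-1298, miR-448, miR-1264, miR-1912 or miR-1911.

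All 8 hairpins lie on the plus strand of mm10, in introns of a host on the same strand, and no annotated exon of any host transcript overlaps them. Mir764 (chrX:147002259-147002366), Mir1912 (chrX:147009441-147009527), Mir1264 (chrX:147010601-147010686) and Mir1298 (chrX:147064905-147065002) lie in intron 2 of transcript Htr2c-201. Mir1911 (chrX:147106939-147107076) and Mir448 (chrX:147158210-147158321) lie in its intron 4. The 6 hairpins span 156.1 kb of a host of 234.8 kb. Mir1912 and Mir1264 are 1.07 kb apart and Mir764 stands 7.07 kb upstream of them, whereas Mir1298 follows 54.2 kb downstream. Mir204 (chr19:22750605-22750672) lies in intron 6 of Trpm3-203 and Mir211 (chr7:64205806-64205911) in intron 6 of Trpm1-201.

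The hairpins of the 3 members with the highest levels are shown with both mature strands in capitals, to place those strands in their precursors.
Mir204: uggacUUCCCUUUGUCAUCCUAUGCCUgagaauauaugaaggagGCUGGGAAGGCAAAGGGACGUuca
Mir211: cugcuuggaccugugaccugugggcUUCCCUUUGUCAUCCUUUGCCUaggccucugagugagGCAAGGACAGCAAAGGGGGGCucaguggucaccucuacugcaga
Mir1298: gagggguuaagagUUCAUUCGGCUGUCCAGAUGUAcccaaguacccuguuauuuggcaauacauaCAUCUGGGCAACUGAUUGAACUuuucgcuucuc

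None of the 8 hairpins shares a stretch of 18 bases with any other annotated hairpin, Mir204 and Mir211 included, whose 5p strands have a longest shared run of 16 bases. None lies opposite another miRNA gene, and their counts on the opposite strand were 0 in both libraries. GC content ran from 36.0% in Mir1264 to 57.5% in Mir211. The folding energy by RNAfold ran from -33.7 to -57.6 kcal/mol for 7 hairpins and was -29.8 kcal/mol for Mir1911, or -22.9 kcal/mol over the shorter RefSeq hairpin. A row of the tables sums the 5p and 3p strands, so the counts do not tell which strand was present.

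The libraries held 5162369 counts on miRNA genes in replicate 2 and 4226300 in replicate 1, out of 15950006 and 12978140 reads in those tables. Levels are CPM, the counts scaled to a common total of counts on miRNA genes. They are not divided by length, since the fragments are short, and they can carry preferences of library preparation that differ between miRNAs and were not measured. Detection means at least 10 CPM in each library, which 309 of the 2202 genes reached. Cortex markers were present in part: the 12 neuron hairpins had 37673 CPM together in replicate 2 and 63502 CPM in replicate 1. Most of this was Mir132, at 21189 CPM in replicate 2 and 40577 CPM in replicate 1. Mir124a-1, Mir124a-2 and Mir124a-3 were under 10 CPM in both libraries. Of 5 muscle hairpins, Mir1a-1, Mir133a-1 and Mir133a-2 were at 0 in both libraries. Mir1a-2 had 0 CPM in replicate 2 and 0.473 CPM in replicate 1. The remaining one, Mir206, was detected, at 52.3 CPM in replicate 2 and 38.6 CPM in replicate 1. Except for Mir206, the muscle hairpins and most of the neuron hairpins share a stretch of 18 bases with another hairpin. The counts leave out multimapping reads, so the levels of hairpins with such a stretch are uncertain.

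Of the 8 members, 6 were detected, with Mir204 the highest. Mir204 had 667 CPM in replicate 2 and 475 CPM in replicate 1, a mean of 571 ± 136 CPM (SD, n = 2). That mean placed it at rank 117 among all miRNA genes. Mir211 had 37.0 CPM in replicate 2 and 65.5 CPM in replicate 1 (51.3 ± 20.2 CPM, SD, n = 2). Most counts of the pair thus came from the Trpm3 locus. Counts of Mir204 were 18.03 times those of Mir211 in replicate 2 (exact binomial 95% interval 15.6 to 20.96) and 7.24 times in replicate 1 (6.38 to 8.24). The intervals do not overlap, so the balance of the pair differed between the libraries by more than counting error. Together the pair took 0.0622% ± 0.0116 of the counts (SD, n = 2). Intervals cover counting error only, and they take the reads as independent molecules, which is not known.

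Mir1298 was the most abundant Htr2c hairpin, and the host's other hairpins stood well below it. It had 254 CPM in replicate 2 and 89.9 CPM in replicate 1 (172 ± 116 CPM, SD, n = 2). Mir1264 had 34.1 CPM in replicate 2 and 30.3 CPM in replicate 1 (32.2 ± 2.69 CPM, SD, n = 2). The levels of Mir448 were 36.2 CPM in replicate 2 and 10.6 CPM in replicate 1 (23.4 ± 18.1 CPM, SD, n = 2). Mir1264 and Mir764 were thus close to level in the 2 libraries, while Mir1298 and Mir448 were not. Mir764 had 13.9 CPM in replicate 2 and 16.3 CPM in replicate 1 (15.1 ± 1.68 CPM, SD, n = 2).

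**Figure D1:**
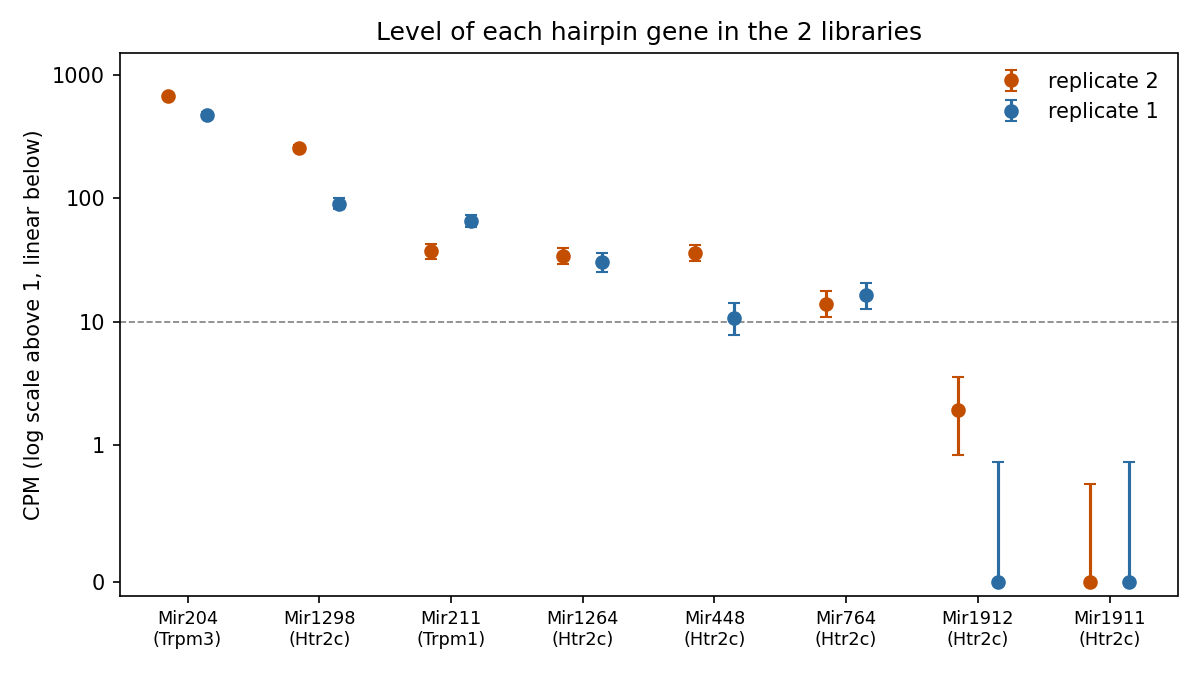
CPM of each hairpin gene, with the host in brackets, in replicate 2 (orange) and replicate 1 (blue), on an axis that is logarithmic above 1 CPM. Bars are exact binomial 95% intervals and the dashed line is the detection threshold of 10 CPM; 6 genes lie above it in both libraries, and Mir1911 is at 0 in both.

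Mir1912 was counted 10 times in replicate 2, or 1.94 CPM, and 0 times in replicate 1. A count of 0 was taken to allow up to 3 counts, which is 0.710 CPM in replicate 1. Mir1911 had no count in either library, which allows up to 0.581 CPM in replicate 2 and 0.710 CPM in replicate 1. Neither hairpin was detected, and absence cannot be told from a level under those limits. In the order of means, Mir204, Mir1298, Mir211 and Mir1264 followed each other with ranges that did not overlap. Mir1264, Mir448 and Mir764 overlapped from neighbour to neighbour: Mir448 was above Mir1264 in replicate 2 and the lowest of these 3 in replicate 1.

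The 6 Htr2c hairpins together had 1757 counts in replicate 2 and 622 in replicate 1, a share of 0.0340% and 0.0147% of the counts in those libraries (mean 0.0244% ± 0.0137, SD, n = 2). Within that sum, Mir1298 made up 74.7% in replicate 2 (exact binomial 95% interval 72.6 to 76.7) and 61.1% in replicate 1 (57.1 to 64.9). Mir1264 made up 10.02% in replicate 2 (8.65 to 11.5) and 20.6% in replicate 1 (17.5 to 24.0). For Mir764 the share was 4.10% in replicate 2 (3.22 to 5.13) and 11.1% in replicate 1 (8.73 to 13.8). For Mir448 it was 10.6% in replicate 2 (9.24 to 12.2) and 7.23% in replicate 1 (5.33 to 9.56). The intervals of Mir1298, Mir1264 and Mir764 do not overlap between the libraries, and those of Mir448 do. The shares of Mir1264 and Mir764 were lower in replicate 2 while their CPM differed little, since the sum held more of Mir1298 and Mir448 there.

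**Figure D2:**
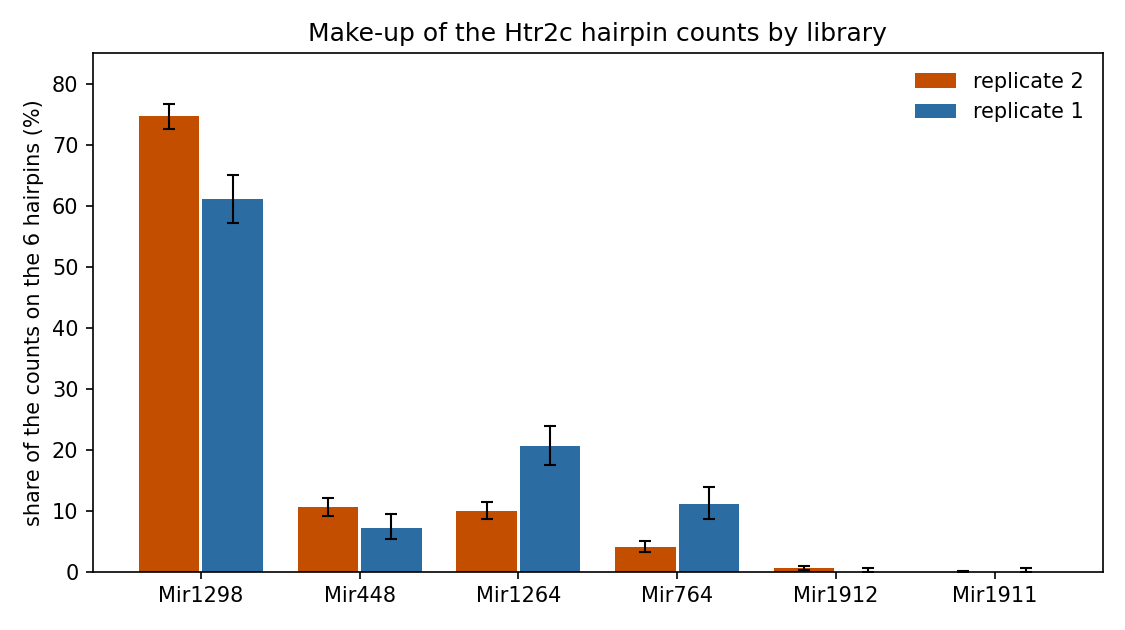
Share of the counts on the 6 Htr2c hairpins that each hairpin took, in percent, in replicate 2 (orange) and replicate 1 (blue), with exact binomial 95% intervals. Mir1298 took 74.7% in replicate 2 and 61.1% in replicate 1, and the shares of Mir1264 and Mir764 were lower in replicate 2.

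Ratios between hairpins of the same library do not depend on any scaling. Counts of Mir1298 were 7.02 times those of Mir448 in replicate 2 (6.02 to 8.22) and 8.44 times in replicate 1 (6.19 to 11.8), with overlapping intervals. Counts of Mir1264 were 2.44 times those of Mir764 in replicate 2 (1.85 to 3.26) and 1.86 times in replicate 1 (1.37 to 2.52), again overlapping. Across these pairings the ratios moved apart: Mir1298 had 7.45 times the counts of Mir1264 in replicate 2 (6.36 to 8.78) and 2.97 times in replicate 1 (2.42 to 3.66). Mir1298 shares intron 2 with Mir1264 and Mir764 but not with Mir448. Its ratio moved less against Mir448 of the other intron than against Mir1264 of its own. Mir1912, also in intron 2, had 10 counts in replicate 2 and 0 in replicate 1 and was not paired. Whether the intron plays a part was not tested. The pairings were singled out after their values were seen.

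**Figure D3:**
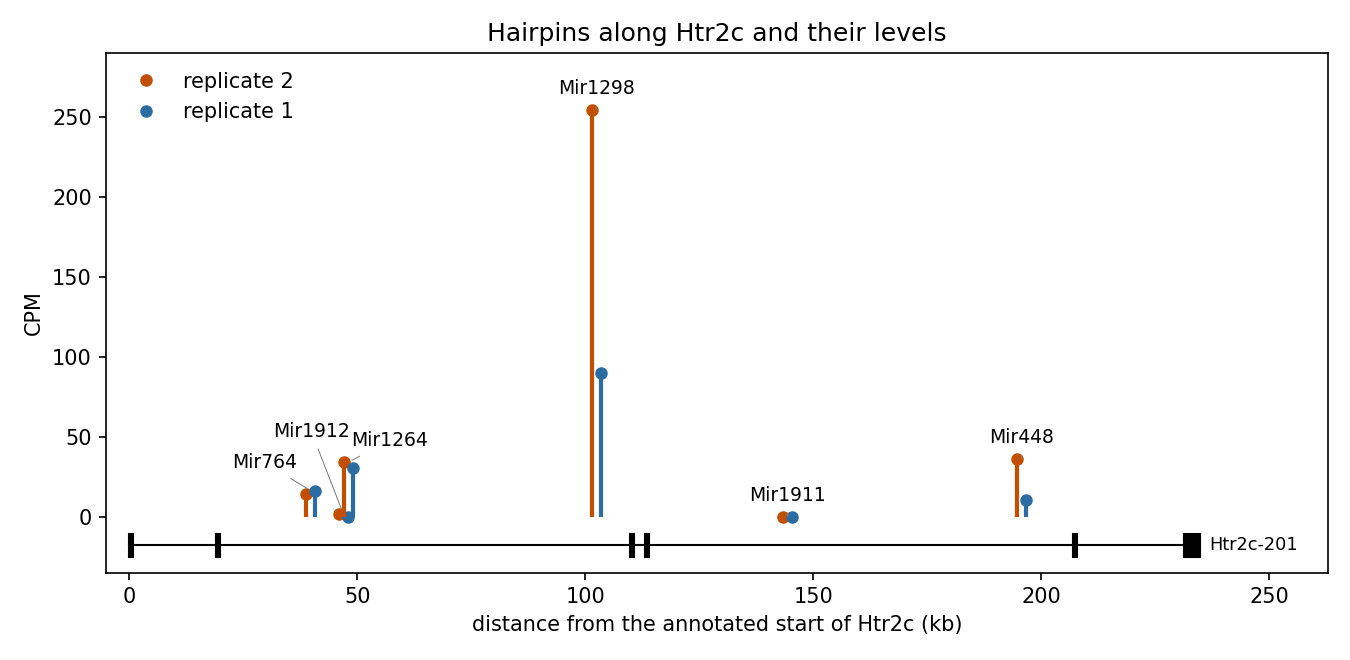
CPM of each Htr2c hairpin against its distance from the annotated start of the gene in kb, for replicate 2 (orange) and replicate 1 (blue; the paired stems are set 2 kb apart so that both can be seen). Black boxes are the exons of Htr2c-201; Mir1298 reaches 254 CPM in replicate 2 and 89.9 CPM in replicate 1, and Mir1911 is at 0 in both.

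With 1 group, the design allows a comparison of replicate 2 with replicate 1 only, and this sets 2 libraries side by side, not 2 conditions. Ratios were scaled by TMM. The test was the exact binomial, two-sided, for the 546 genes whose counts in both libraries summed to 10 or more, with Benjamini-Hochberg adjustment over them. Of the 8 members, 7 could be tested and 5 were called at an adjusted p under 0.05, against 58.8% of all genes tested. Mir1298, Mir448, Mir204 and Mir1912 were higher in replicate 2, a direction in which 24.5% of all genes tested were called. Mir211 was higher in replicate 1, as were 34.2% of all genes tested. The median log2 ratio was 0.46 over the 7 tested members, with Mir1912 at its bound or not, and -0.07 over all genes tested.

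Mir448 was 3.33-fold higher in replicate 2 (exact 95% interval 2.39 to 4.72; exact binomial test, adjusted p = 5.80e-15). Mir1298 was 2.77-fold higher in replicate 2 (2.47 to 3.11; exact binomial test, adjusted p = 1.28e-78). The interval of Mir1298 lies within that of Mir448. For Mir1912, with 0 counts in replicate 1 set to the limit of 3, replicate 2 was at least 2.67-fold higher (exact binomial test, adjusted p = 0.00641). That value takes the 10 counts of replicate 2 as they stand, and the exact 95% interval, which also covers their counting error, starts at 1.80. Mir1264 had a ratio of 1.10 (0.872 to 1.39; adjusted p = 0.528) and Mir764 of 0.836 (0.592 to 1.18; adjusted p = 0.409), and neither passed the exact binomial test. Their intervals end below that of Mir1298, so a ratio as large as that of Mir1298 lies outside the counting error of either.

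Mir204 was 1.38-fold higher in replicate 2 (1.30 to 1.45; exact binomial test, adjusted p = 9.21e-30). Mir211 had a ratio of 0.552 (0.457 to 0.667), which is 1.81-fold higher in replicate 1 (exact binomial test, adjusted p = 6.26e-10). The pair with the common seed thus went in opposite directions between the libraries. The Htr2c hairpins as a sum had a ratio of 2.26 (2.06 to 2.48), and the Trpm-hosted pair, carried by Mir204, one of 1.28 (1.21 to 1.34).

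**Figure D4:**
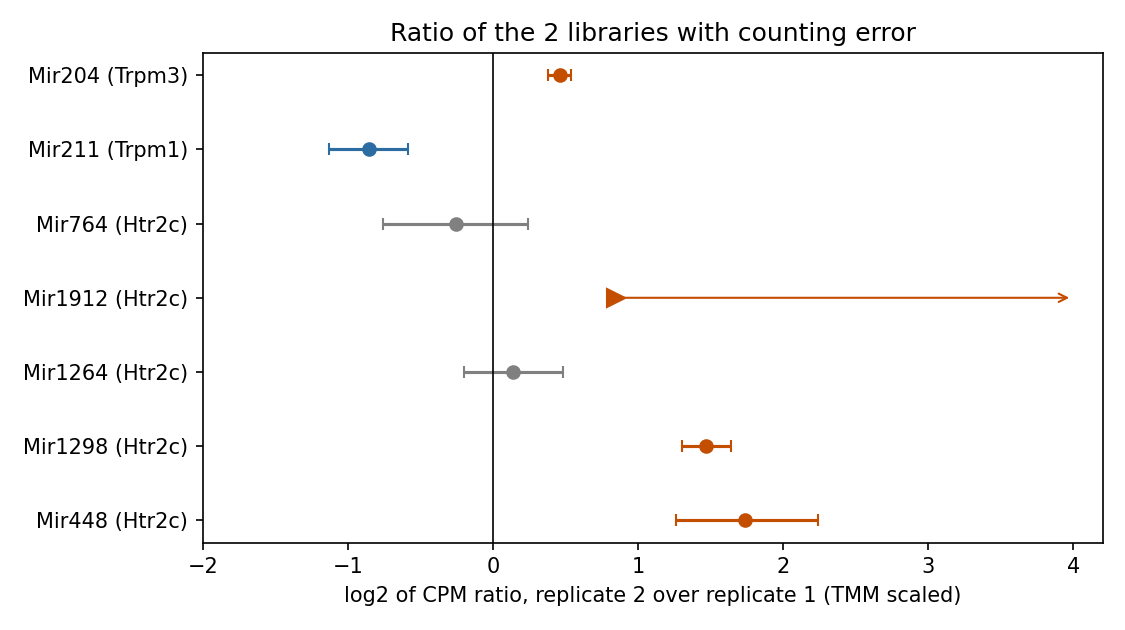
Log2 ratio of replicate 2 over replicate 1 for the 7 tested members, with exact binomial 95% intervals. Orange marks genes higher in replicate 2, blue marks Mir211, which was higher in replicate 1, and grey marks Mir764 and Mir1264, which did not pass the test; the arrow for Mir1912 starts at the lower end of its exact interval, 1.80-fold.

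These tests hold counting error alone, and the libraries varied beyond it, with a biological coefficient of variation (BCV) of 0.481 over tested genes. With edgeR's exact test at a fixed BCV of 0.1, Mir204 was no longer called (adjusted p = 0.0820) while Mir1298, Mir448, Mir1912 and Mir211 were, against 28.8% of all genes tested. At a fixed BCV of 0.4 that test called none of the 7 members and 1.28% of all genes tested, and 1 member, Mir1912, had an unadjusted p under 0.05, as had 40 of the 546 genes tested. An absolute log2 ratio as large as that of Mir448 was seen in 11.9% of the genes tested. For the ratio of Mir1298 this was 15.2%, and for that of Mir204 it was 54.0%. These percentages cover tested genes of all levels. Many of those genes had far fewer counts than Mir1298 or Mir204, and so more counting error in their ratios. The percentages therefore do not tell how common such ratios were among genes at the level of each member.

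**Figure D5:**
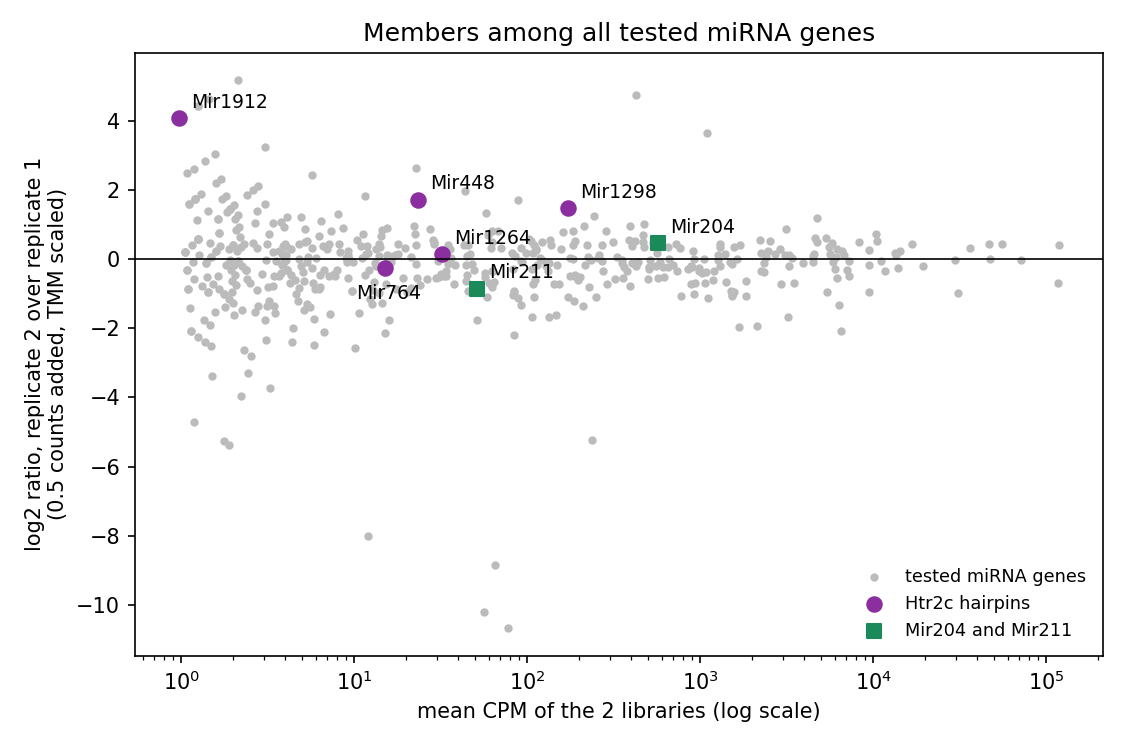
Log2 ratio of replicate 2 over replicate 1, with 0.5 counts added to each library, against the mean CPM for the 546 tested miRNA genes (grey), the Htr2c hairpins (purple circles) and the Trpm-hosted pair (green squares). Mir1298 and Mir448 lie in the upper part of the cloud at their levels, and Mir764 and Mir1264 lie near 0; the height of Mir1912 rests on 0 counts in replicate 1 and is no bound.

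Hairpins known from epithelial and ciliated cells differed between the libraries in both directions. The miR-34 and miR-449 hairpins, which promote the formation of multiciliated cells such as ependyma, had 691 CPM together in replicate 2 and 366 CPM in replicate 1. Of these 5 hairpins 3 were tested and 1 was called, against 58.8% of all genes tested. It was Mir34c, at 637 CPM in replicate 2 and 308 CPM in replicate 1 (2.02-fold higher in replicate 2, exact binomial test, adjusted p = 3.01e-110). Mir34b had 12.4 CPM in replicate 2 and 10.9 CPM in replicate 1, Mir449a had 42.0 CPM in replicate 2 and 46.4 CPM in replicate 1, and Mir449b was at 0 in both. The miR-200 family, which maintains epithelial identity, had 156 CPM together in replicate 2 and 406 CPM in replicate 1. All 5 of its hairpins were called higher in replicate 1, a direction in which 34.2% of all genes tested were called. Their ratios ran from 1.89-fold for Mir200c to 4.60-fold for Mir200b.

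Clcn5, a chloride transporter gene, is another X-linked host of several hairpins, and 5 of the 6 listed ones are in the tables under those names. They had 1389 CPM together in replicate 2 and 1279 CPM in replicate 1. All 5 were called, against 58.8% of all genes tested, and in both directions: Mir532 and Mir500 were higher in replicate 2 (1.35-fold and 1.19-fold), and Mir501, Mir362 and Mir188 higher in replicate 1 (1.49-fold, 1.77-fold and 1.13-fold). The ratios of hairpins within 1 host thus differed in Clcn5 too. The 3.33-fold ratio of Mir448 was above any of theirs.

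Markers of blood and neurons also differed between the libraries. The 3 blood hairpins had 887 CPM together in replicate 2 and 72.4 CPM in replicate 1. Mir451a and Mir144, both erythroid, were called higher in replicate 2, and Mir486, which shares a stretch of 18 bases with Mir3107, higher in replicate 1. Of 11 tested neuron hairpins, 8 were called higher in replicate 1 and 1, Mir138-1, higher in replicate 2, where 34.2% and 24.5% of all genes tested were called in those directions. The 4 hairpins of meninges and fibroblasts had 28.9 CPM together in replicate 2 and 38.6 CPM in replicate 1. Most of this was Mir214, at 27.9 CPM in replicate 2 and 38.3 CPM in replicate 1, and called higher in replicate 1. Mir199a-1, which shares such a stretch with Mir199b, was at 0 in both. The endothelial Mir126a had 13122 CPM in replicate 2 and 7756 CPM in replicate 1. The 3 astrocyte hairpins had 38482 CPM together in replicate 2 and 40419 CPM in replicate 1. Of these, Mir23a was higher in replicate 2 (1.41-fold), and Mir23b and Mir29a were higher in replicate 1 (1.16-fold and 1.27-fold). The 2 oligodendrocyte hairpins had 5329 CPM together in replicate 2 and 7091 CPM in replicate 1. Mir23a shares a stretch of 18 bases with Mir23b, and Mir219a-2, an oligodendrocyte hairpin, with Mir219a-1. The part of these differences in the ratios of Mir1298, Mir448, Mir1912 and Mir204 was not tested. In whole tissue, more cells of a type and more RNA per cell cannot be told apart.

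By the distance of log2(CPM + 1) over the 2 libraries, 4 of the 6 members with at least 100 counts in the sum had close neighbours among the tested genes. The nearest to Mir204 were Mir7689, Mir28a and Mir134, at distances of 0.05 to 0.13. Mir1264 had Mir193a at 0.05, Mir764 had Mir542 at 0.06 and Mir211 had Mir24-2 at 0.08. Mir1298 and Mir448 had none so close: their nearest genes were Mir331 at 0.49 and Gm23935 at 0.52. Over 2 libraries such likeness describes levels only.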

How the data were processed

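MicroRNA-seq of 2 cortex libraries was analysed from deposited tables that hold, for each miRNA gene, raw read counts made by the authors, on mm10 and GENCODE M21 per the record accompanying each file. Which aligner, counter and trimming were used is not given in the sources used here. Totals and tests leave out 4 rows that name no gene (unmapped, multimapping, outside features, ambiguous). They held 67.6% of the reads of replicate 2 and 67.4% of those of replicate 1. Reads mapping to several places are among them. Reads of a strain that differs from the reference could map less well, which was not analysed here.

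Own-strand counts were used, as CPM over all miRNA genes. Library sizes were scaled by TMM (edgeR 4.0.16, R 4.3.3). The exact binomial test, exact (Clopper-Pearson) 95% intervals and Benjamini-Hochberg adjustment were run with SciPy 1.17.1. With 1 group there is no contrast for a quasi-likelihood test. The BCV is from an intercept-only edgeR fit. The binomial test and the ratio intervals were tested on simulated counts with counting error alone. Such counts cannot show how they behave where libraries vary beyond it, as these did. DESeq2 1.42.0 size factors, other filters, denominators and columns were alternatives. Folding used ViennaRNA 2.7.2.

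Sequences come from RefSeq (GRCm38.p6), where all 8 members had mature strands, and gene positions from GENCODE M21. Named genes were the members, the 3 comparison lists and the 3 nearest genes of each member with at least 100 counts, with marker lists for other cell types. The members and lists were chosen with earlier results of these data known.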

Additional observations from a re-analysis of the deposited data

How the results depend on the processing

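Shares and levels depended on the denominator. Over all reads of the tables, the mean share was 0.00790% for the Htr2c hairpins and 0.0202% for the Trpm-hosted pair, and the 8 members had 281 CPM together. Without the 10 most abundant genes these were 0.0572%, 0.146% and 2030.3 CPM, in place of 0.0244%, 0.0622% and 866 CPM. The fixed-BCV edgeR tests gave fewer calls over all genes, 157 at a BCV of 0.1 and 7 at 0.4, against 321 by the binomial test, and 4 and 0 members against 5. The same 5 members were called with DESeq2 size factors, with total counts and in the unstranded column; Mir1912 falls out at 100 counts or more. With 1 library left out, the share of the Htr2c hairpins ran from 0.0147% to 0.0340%, that of the pair from 0.0540% to 0.0704%, the sum of members from 687 to 1044 CPM, the part of Mir1298 in its cluster from 61.1% to 74.7% and the ratio of Mir204 to Mir211 from 7.24 to 18.03. A mean of 2 values moves by less than their SD when 1 is left out, so this says nothing about stability. Ratios between libraries cannot be had from 1 library. No paired analysis was possible because the 2 libraries form 1 group. Depth limits Mir1911 in both libraries and Mir1912 in replicate 1, where a count of 0 was taken to allow up to 3 counts.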

Other observations

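A further annotated hairpin in Htr2c, Gm22650 (chrX:146999405-146999509), is not among the members and lies upstream of Mir764. It had 31 counts in replicate 2 and 35 in replicate 1, a ratio of 0.710 (exact 95% interval 0.423 to 1.18; exact binomial test, adjusted p = 0.249). With it, Htr2c holds 7 annotated intronic hairpins, and of all protein-coding hosts only Sfmbt2, with 119, holds more.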
